A study of Mus musculus with 8 samples.

Results

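Interferon-stimulated genes are the genes that cells switch on when interferon, a cytokine of the antiviral defence, binds its receptor. A set of 43 of them was followed across 8 Affymetrix arrays of immortalized mouse hematopoietic cells that lack Picalm or have it restored. They were taken by gene symbol, and a gene with several probe sets was read from the one whose log2 level averaged highest over the 8 arrays. Of the 43 genes, 38 had a probe set of their own, out of 12393 genes with such a probe set in the whole table. Isg15 and Tgtp1 had only a probe set shared with another gene and are described apart. Oas1g, Ifi44 and Xaf1 had no probe set in the probe table and were not analysed here. No filter on low values was applied, so none of the 38 was lost to one. The set was chosen from measured values, because the high interferon response of the knockout cells of line 84 was known beforehand. The levels of line 84 and its difference between rescued and knockout cells are therefore given as a description and without a test.

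Type I interferons (interferon alpha and beta) bind a receptor made of Ifnar1 and Ifnar2, and its kinases Jak1 and Tyk2 activate a complex that holds Stat2 and Irf9 and binds the interferon-stimulated response element (ISRE) of target promoters. Interferon gamma, the type II interferon, binds Ifngr1 and Ifngr2 and acts through Jak1 and Jak2 on promoters that hold the gamma-activated site (GAS). The targets include transcription factors, sensors of viral nucleic acid, enzymes that stop viral growth and proteins that end the signal, and many of them respond to either kind of interferon. The genes are separated here into 30 usually grouped with type I and 8 usually grouped with type II interferon.

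The cells came from E14 fetal liver of fit1 Picalm fit1-5R embryos (background strain B6(Cg)-TyrC-2J/J), which make no functional Picalm, an endocytic adaptor of clathrin-coated pits. They were immortalized with the leukemia fusion MLL-ENL from a retrovirus that also carries eGFP, replated serially, and grown in RPMI with IL-3 (5 ng/ml) and stem cell factor (50 ng/ml), and all 8 arrays share this history. The 4 lines are PICALM6A, PICALM6B, PICALM6D and PICALM84, written 6A, 6B, 6D and 84. Each was measured once with the empty MSCVneo vector (Picalm-knockout, labelled +neo) and once with human PICALM in that vector (PICALM-rescued, labelled +calm), after selection with G418. The sources used here do not say whether lines came from different embryos, so p-values measure the spread between these lines. With 1 array for each line and condition, a feature of an array cannot be told apart from one of the cells on it. In bulk RNA, fewer cells of a type and less RNA per cell cannot be told apart either.

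The deposited values are log2 levels from robust multi-array average (RMA) normalization, so a difference of 1 is a 2-fold change, and levels of different probe sets were not set against each other. Array medians over 22626 probe sets ran from 7.32 to 7.35. Ptprc, Mpo and Hoxa9, genes of white cells, of early granulocytes and of progenitors immortalized by MLL fusions, were at levels of 12.22 to 12.54, 13.92 to 14.12 and 12.69 to 13.32 on the 8 arrays. Picalm itself had no probe set in the probe table, so its level could not be used to check the labels.

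The promoters of a few of these genes are printed to show the elements through which interferon acts and how unevenly the exact elements occur. RefSeq promoters (mouse build GRCm38.p6, from 250 bases before to 50 after each start) were found for 33 of the 43 genes, and none was found for Rtp4, Oas2, Mx1, Mx2, Usp18, Dhx58, Iigp1, Parp9, Parp14 and Zbp1. They were searched on both strands for an ISRE spelled GAAANNGAAA and a GAS spelled TTCNNNGAA, which can overlap each other. An ISRE occurred in 18 of the 33 genes (54.5%), and in 3.99% of 27025 genes and 3.44% of all 32851 promoters of the same length. It occurred in 12 of 25 type I genes and 6 of 8 type II genes. A GAS occurred in 12 of the 33 (36.4%), and in 9.55% of all genes and 8.3% of all promoters, and 6 of the 33 had both. A match describes the letters of this window and is not a measured binding site. The 150 bases before the start follow, 5′ to 3′ on the gene's strand, with each ISRE and GAS in capitals and adjoining matches run together. Ifit1 and Rsad2 stand for the type I effectors with the clearest differences between arrays, Igtp and Irgm1 for the type II GTPases, Oasl2 for genes with a large difference and no match, and Gbp3 (the first of its 2 promoters) for a match in the gene that differed least.
Ifit1 (chr19:34640739-34640888, plus strand): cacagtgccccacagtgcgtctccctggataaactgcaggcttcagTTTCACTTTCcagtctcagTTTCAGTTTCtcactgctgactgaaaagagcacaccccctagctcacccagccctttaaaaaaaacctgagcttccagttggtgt
Rsad2 (chr12:26456453-26456602, minus strand): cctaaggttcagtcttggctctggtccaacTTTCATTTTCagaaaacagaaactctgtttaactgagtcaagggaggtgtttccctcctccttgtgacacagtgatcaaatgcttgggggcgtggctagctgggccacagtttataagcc
Igtp (chr11:58199406-58199555, plus strand): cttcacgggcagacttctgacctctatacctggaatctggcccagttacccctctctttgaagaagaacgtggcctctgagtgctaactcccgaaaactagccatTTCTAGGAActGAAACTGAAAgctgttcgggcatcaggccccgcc
Irgm1 (chr11:48871421-48871570, minus strand): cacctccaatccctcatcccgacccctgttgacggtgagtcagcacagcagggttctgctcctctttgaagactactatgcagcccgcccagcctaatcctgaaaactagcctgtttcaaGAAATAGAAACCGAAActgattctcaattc
Oasl2 (chr5:114896784-114896933, plus strand): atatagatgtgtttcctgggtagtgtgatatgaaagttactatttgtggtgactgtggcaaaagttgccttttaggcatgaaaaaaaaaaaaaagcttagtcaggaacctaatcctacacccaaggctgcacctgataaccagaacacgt
Gbp3 (chr3:142559894-142560043, plus strand): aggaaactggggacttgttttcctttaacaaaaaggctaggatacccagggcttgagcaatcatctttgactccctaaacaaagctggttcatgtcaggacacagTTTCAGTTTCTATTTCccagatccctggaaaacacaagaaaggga
The Ifit1 matches begin 104 and 85 bases before the start and the Rsad2 match 120 bases before it. In Igtp, an ISRE at 34 bases lies beside a GAS at 45 bases before the start. In Irgm1 and Gbp3, a pair of overlapping ISRE matches begins 30 and 45 bases before the start. Oasl2 has neither element in its 300-base window.

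Most of the interferon-stimulated genes were at similar levels in lines 6A, 6B and 6D. Lgals3bp (7.96 to 9.42), Oas1a (8.73 to 9.82) and Gbp2 (4.98 to 6.0) ranged more widely over those 6 arrays. The genes were higher in the knockout cells of line 84, and lower but mostly still raised in the rescued cells of line 84. The median level of the 38 genes was 7.36, 7.48 and 7.13 on the knockout arrays and 7.49, 7.51 and 7.27 on the rescued arrays of lines 6A, 6B and 6D. It was 10.01 on the knockout and 8.50 on the rescued array of line 84. For all 38 genes the highest of the 8 levels was that of the knockout cells of line 84. Their array was the highest of the 8 in 29.7% of all probe sets. It lay above the 6 arrays of the other lines in 36.1%, so a high place for this array alone was common. Both arrays of line 84 lay above all 6 others for 32 of the 38 genes (84.2%), against 21.7% of all probe sets, and below all 6 for 0, against 17.5%. They lay above by over 1 for 8 genes, Rtp4, Usp18, Oasl2, Rsad2, Oas2, Ifit1, Irf9 and Zbp1, against 0.756% of all probe sets. The median difference between line 84 and the other lines was 1.54, and it was 2.41 between knockout arrays alone and 0.65 between rescued arrays alone. Over all probe sets it was 0.02.

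**Figure D1:**
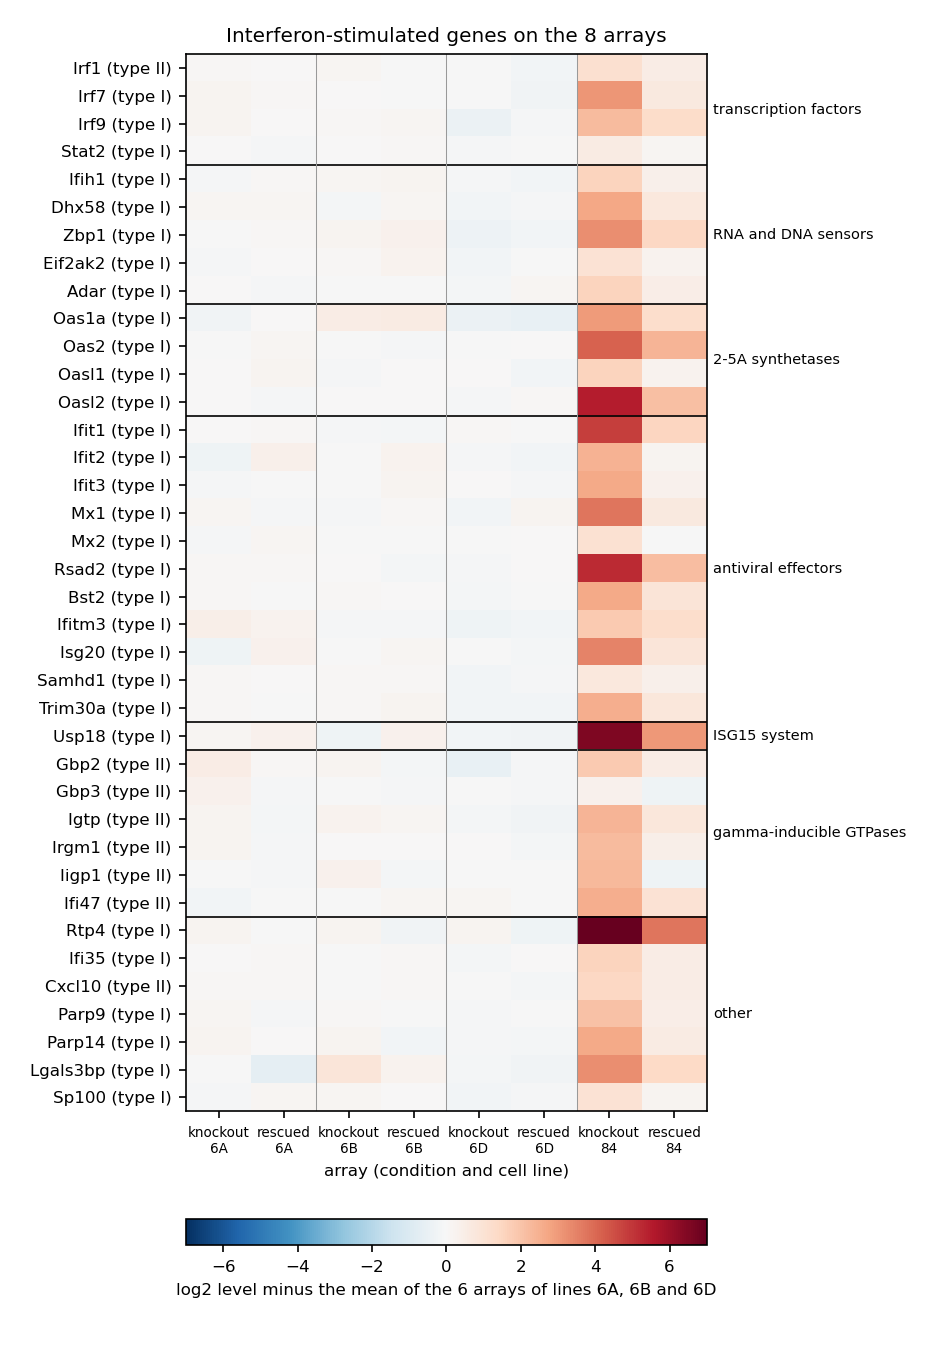
Log2 level of the 38 interferon-stimulated genes (rows, with their interferon type, in role groups) on the 8 arrays (columns), as the difference from the mean of the 6 arrays of lines 6A, 6B and 6D. Red is higher and blue lower. The knockout column of line 84 is on the red side in all 38 rows, only faintly in Gbp3. The rescued column of line 84 is paler, and Gbp3, Iigp1 and Mx2 lie slightly below the mean there. The other 6 columns are near white in most rows.

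Restoring PICALM was accompanied by lower levels of these genes in line 84 and by little difference in the other lines. In line 84 all 38 genes were lower on the rescued than on the knockout array, by 0.42 to 3.46 on the log2 scale (median difference -1.74), and 36 were lower by over 0.5, against 3.46% of all probe sets. None was higher by over 0.5 in line 84, against 4.16% of all probe sets. The median difference between rescued and knockout array was -0.06 in line 6A, 0.01 in line 6B and 0.00 in line 6D. Lower by over 0.5 were 1 gene in line 6A (1.26% of all probe sets), 1 in line 6B (1% of all) and 0 in line 6D (0.513% of all). Higher by over 0.5 were 2 in line 6A (1.45% of all), 1 in line 6B (0.632% of all) and 0 in line 6D (0.393% of all). Lgals3bp was the lower gene in both 6A and 6B, Ifit2 and Isg20 were the higher ones in 6A, and Usp18 was the higher one in 6B. For each of the 38 genes the difference in line 84 was larger than any of its own in the other lines. Folds and differences within a line rest on 1 array of each kind and carry no error.

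**Figure D2:**
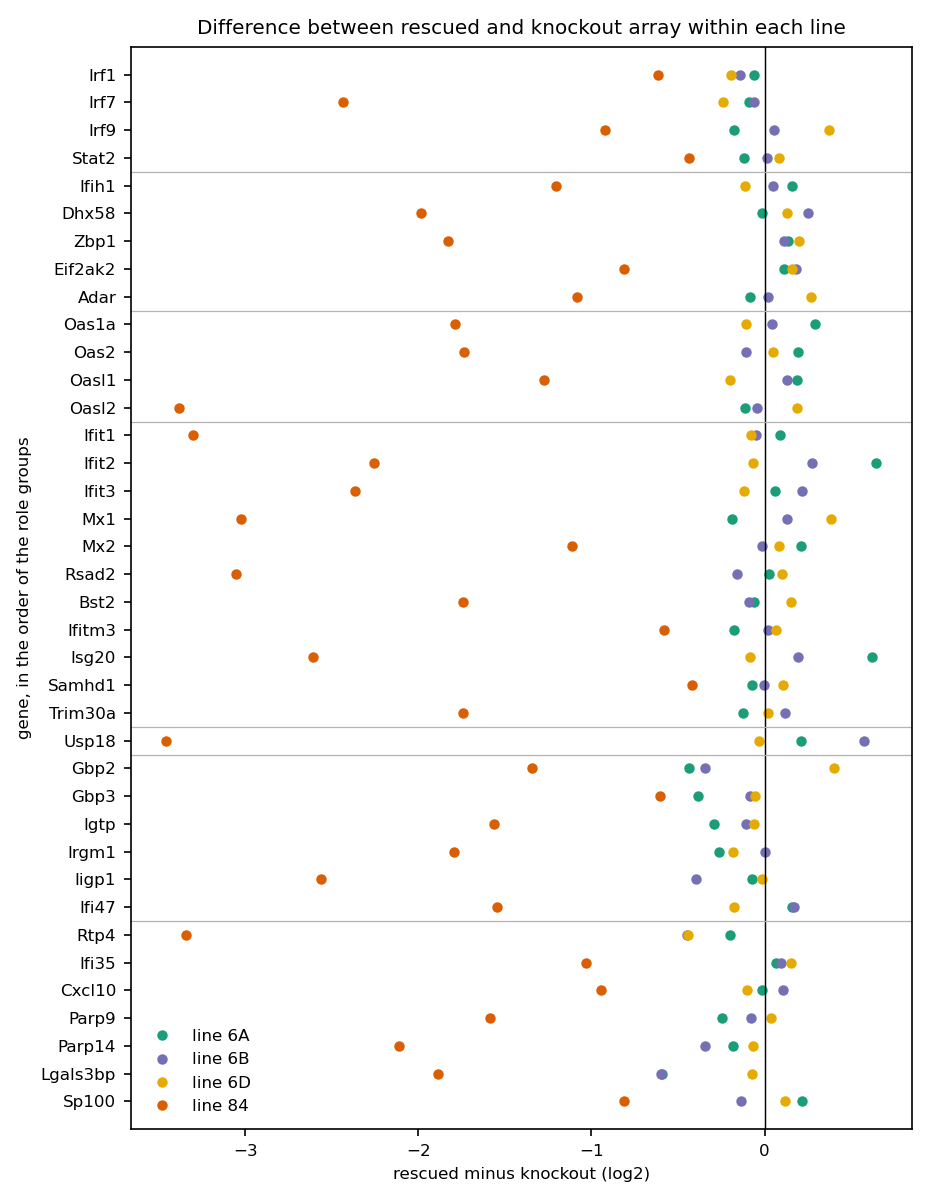
Difference in log2 level between the rescued and the knockout array of each line (x axis) for the 38 genes (y axis, in role groups), with 1 point for each line. The points of line 84 lie between -3.46 and -0.42, to the left of the points of the other 3 lines for every gene, which lie between -0.60 and 0.65.

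The difference of line 84 was also set against the mean difference of the other 3 lines, as the interaction term of limma. It was below 0 for all 38 genes, from -0.43 for Samhd1 to -3.71 for Usp18, with a median of -1.62. Of the 38 genes, 29 were called lower at an adjusted p under 0.05 after Benjamini and Hochberg across the 22626 probe sets, against 1.11% of all probe sets, and 0 were called higher, against 1.11% of all. The knockout array of line 84, whose high levels chose the genes, enters this term, and line 84 gives it a single difference, assumed to vary like those of the other lines. Nothing is read from the count, and for the 38 genes the terms are given below as a description, with their standard errors and no p.

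Across all 4 lines, in a fit blocked on the line, 0 of the 38 genes passed an adjusted p under 0.05 between rescued and knockout cells in limma. Called lower were 0.0177% of all probe sets and called higher 0%. The median difference of the 38 was -0.40, and 3 passed at an unadjusted p under 0.05 (Irf1, Gbp3 and Lgals3bp), as did 2825 of all probe sets. Line 84, whose values chose the set, enters this fit, both its differences and their spread. For the 38 genes these results are therefore a description, and nothing is read from the calls. The t-test that the methods name for statistics in general, and a SAM paired by line at a false discovery rate under 0.1, also called 0 of the 38. For the arrays the study used SAM at another threshold and named no pairing, so its own test was not repeated. Lines 6A, 6B and 6D were also tested without line 84. In them limma called 0 of the 38 and 0 of all probe sets, 6 of the 38 and 3234 of all passed at an unadjusted p under 0.05, and the median of the 38 was 0.01. In all 4 lines together, 8 of the 38 were lower on every rescued array, as were 2677 of all probe sets, and 0 were higher. All 38 were lower in line 84, whose values chose the set, so nothing is read from these counts. In lines 6A, 6B and 6D alone, 8 of the 38 were lower on every rescued array, as were 4152 of all 22626 probe sets. Higher on every rescued array of these lines were 3 of the 38 and 4496 of all.

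Among the transcription factors of the response, Irf7, Irf9, Irf1 and Stat2 all stood higher in both arrays of line 84 than in all others, and Irf7 differed most with PICALM in that line. Irf7 is the factor that amplifies type I interferon production. It was at log2 levels of 6.98, 6.85 and 6.79 on the knockout arrays of lines 6A, 6B and 6D, at 6.89, 6.79 and 6.55 on their rescued arrays, and at 9.90 and 7.47 on the knockout and rescued array of line 84. Only the knockout array stood far from the rest, with a 5.41-fold higher level than the rescued array of the same line and an interaction term of -2.31 (SE 0.11). Irf9, the DNA-binding part of the complex with Stat2, was at 7.72, 7.61 and 7.08 in knockout and 7.54, 7.67 and 7.45 in rescued cells of 6A, 6B and 6D, and at 9.74 and 8.82 in line 84. Both arrays of line 84 stood over 1 above the other 6, and the interaction term was -1.0 (SE 0.22). Irf1, a transcription factor that interferon gamma induces, was at 9.01, 9.06 and 8.93 in knockout and 8.94, 8.92 and 8.74 in rescued cells of 6A, 6B and 6D, and at 10.08 and 9.46 in line 84. Stat2 was at 7.01, 7.01 and 6.87 in knockout and 6.90, 7.02 and 6.95 in rescued cells of 6A, 6B and 6D, and at 7.54 and 7.10 in line 84, the smallest span of the 4. A second probe set of Stat2 was at 6.53 and 6.43 in the knockout and rescued array of line 84 and at a mean of 6.42 in the other lines.

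All 5 sensors of viral nucleic acid were lower with PICALM in line 84 by over 0.5. Zbp1, a sensor of Z-form nucleic acid that can start cell death, was at log2 levels of 6.28, 6.52 and 5.96 on the knockout arrays of lines 6A, 6B and 6D, at 6.42, 6.63 and 6.16 on their rescued arrays, and at 9.60 and 7.77 on the knockout and rescued array of line 84. Both arrays of line 84 were over 1 higher than every other array. Its interaction term was -1.98 (SE 0.09). Dhx58, which encodes the RIG-I relative LGP2, was at 7.15, 6.88 and 6.83 in knockout and 7.14, 7.14 and 6.96 in rescued cells of 6A, 6B and 6D, and at 9.73 and 7.74 in line 84. Ifih1, which encodes MDA5, a sensor of long double-stranded RNA, was at 9.08, 9.31 and 9.10 in knockout and 9.24, 9.36 and 8.98 in rescued cells of 6A, 6B and 6D, and at 10.71 and 9.51 in line 84. On the rescued array of line 84 Dhx58 and Ifih1 stood at 1.59 and 1.24 times the level of the other rescued arrays. Adar, an RNA-editing enzyme that limits the sensing of the cell's own RNA, was at 7.88, 7.82 and 7.74 in knockout and 7.79, 7.84 and 8.0 in rescued cells of 6A, 6B and 6D, and at 9.41 and 8.33 in line 84. Eif2ak2, which encodes PKR, a kinase that stops translation on double-stranded RNA, was at 9.10, 9.28 and 9.02 in knockout and 9.21, 9.46 and 9.18 in rescued cells of 6A, 6B and 6D, and at 10.24 and 9.43 in line 84. In Eif2ak2 the rescued array of line 84 lay within the range of the other lines, and the folds between the arrays of line 84 were 1.75 for Eif2ak2 and 2.12 for Adar.

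The 2-5A synthetases make oligoadenylates that activate RNase L against viral RNA, and all 4 measured members of the family were lower with PICALM in line 84 by over 0.5. Oasl2, a synthetase-like protein, was at log2 levels of 4.04, 4.05 and 3.90 on the knockout arrays of lines 6A, 6B and 6D, at 3.92, 4.0 and 4.09 on their rescued arrays, and at 9.48 and 6.10 on the knockout and rescued array of line 84. The other lines were alike, with a standard deviation of 0.07 over their 6 arrays, and the knockout array of line 84 was 44.9-fold higher than the other knockout arrays in the deposited values. The lowest levels of the 8 arrays were 3.15 to 3.22. Whether Oasl2 was above background in the other lines is not given in the table, and the same holds for every gene. Levels in those lines were also low for Ifit1, Mx1, Usp18, Rtp4, Iigp1, Gbp2 and the shared probe set of Tgtp1, described below. Folds of Oasl2 and of these genes against those lines are thus ratios of deposited values and not of measured transcript. With PICALM the level of Oasl2 in line 84 was 10.5-fold lower, yet it was still 4.27-fold higher than in the other rescued arrays. Oas2 was at 5.94, 5.99 and 5.97 in knockout and 6.13, 5.88 and 6.01 in rescued cells of 6A, 6B and 6D, and at 10.12 and 8.38 in line 84. Oas1a was at 8.99, 9.77 and 8.83 in knockout and 9.28, 9.82 and 8.73 in rescued cells of 6A, 6B and 6D, and at 12.24 and 10.45 in line 84. Their interaction terms were -1.78 (SE 0.14) and -1.86 (SE 0.17). Oasl1, a second synthetase-like protein, was at 6.92, 6.80 and 6.93 in knockout and 7.11, 6.93 and 6.73 in rescued cells of 6A, 6B and 6D, and at 8.44 and 7.16 in line 84, and its rescued array was barely above the other lines.

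Of the 11 antiviral effectors, 10 were lower with PICALM in line 84 by over 0.5, the exception being Samhd1. Rsad2, which encodes viperin, an enzyme that makes a chain-terminating nucleotide, was at log2 levels of 6.41, 6.38 and 6.25 on the knockout arrays of lines 6A, 6B and 6D, at 6.44, 6.22 and 6.35 on their rescued arrays, and at 11.55 and 8.49 on the knockout and rescued array of line 84. Both arrays of line 84 stood clear of the other 6. The knockout array was 36.7-fold and the rescued array 4.46-fold above its counterparts, and the interaction term was -3.04 (SE 0.13). Ifit1, which binds viral RNA that lacks the cap methylation of the host, was at 4.26, 4.19 and 4.32 on the knockout arrays of lines 6A, 6B and 6D, at 4.35, 4.14 and 4.24 on their rescued arrays, and at 9.07 and 5.76 on the knockout and rescued array of line 84. It had the same pattern, with a knockout array 28.04-fold above the others and an interaction term of -3.29 (SE 0.11). Its relatives Ifit2 and Ifit3 had smaller differences in level between line 84 and the other lines, 1.32 and 1.47. Ifit3 was at 5.71, 5.74 and 5.83 in knockout and 5.77, 5.95 and 5.72 in rescued cells of 6A, 6B and 6D, and at 8.44 and 6.07 in line 84. Ifit2 was at 6.79, 7.08 and 7.0 in knockout and 7.44, 7.35 and 6.93 in rescued cells of 6A, 6B and 6D, and at 9.55 and 7.30 in line 84, so that its rescued array of line 84 lay inside the range of the other lines.

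The GTPases Mx1 and Mx2, which block the replication of many viruses, were both lower with PICALM in line 84. Mx1 was at 4.86, 4.68 and 4.54 in knockout and 4.67, 4.81 and 4.92 in rescued cells of 6A, 6B and 6D, and at 8.48 and 5.46 in line 84, with a fold of 8.14 within line 84. Mx2 was at 5.88, 5.95 and 5.93 in knockout and 6.10, 5.94 and 6.01 in rescued cells of 6A, 6B and 6D, and at 7.03 and 5.92 in line 84, with the rescued array of line 84 below the rescued arrays of the other 3 lines, and a difference of 2.16-fold. Isg20, an RNA exonuclease, was at 7.24, 7.51 and 7.52 in knockout and 7.86, 7.70 and 7.43 in rescued cells of 6A, 6B and 6D, and at 11.01 and 8.40 in line 84. Its interaction term was -2.86 (SE 0.27), although the 6A arrays also differed, in the opposite direction. Bst2, which encodes tetherin and holds budding virions on the cell, was at 9.28, 9.31 and 9.06 in knockout and 9.22, 9.22 and 9.22 in rescued cells of 6A, 6B and 6D, and at 11.85 and 10.11 in line 84. Trim30a, a TRIM protein induced by interferon, was at 9.17, 9.17 and 8.88 in knockout and 9.05, 9.29 and 8.91 in rescued cells of 6A, 6B and 6D, and at 11.61 and 9.87 in line 84. These 2 genes had nearly the same difference within line 84, -1.74 and -1.74. The remaining effectors differed less within line 84. Ifitm3, which blocks viral entry from endosomes, was at 12.23, 11.70 and 11.52 in knockout and 12.06, 11.72 and 11.59 in rescued cells of 6A, 6B and 6D, and at 13.61 and 13.03 in line 84. Samhd1, which lowers the nucleotide pool, was at 9.70, 9.70 and 9.44 in knockout and 9.63, 9.70 and 9.54 in rescued cells of 6A, 6B and 6D, and at 10.37 and 9.95 in line 84. Their interaction terms were -0.55 (SE 0.13) and -0.43 (SE 0.11).

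The ISG15 system attaches the ubiquitin-like protein ISG15 to other proteins and removes it again, and its measured members differed strongly between the arrays of line 84. Usp18, the protease that removes ISG15 and also blocks the type I receptor, was at log2 levels of 5.59, 5.19 and 5.27 on the knockout arrays of lines 6A, 6B and 6D, at 5.80, 5.77 and 5.24 on their rescued arrays, and at 11.99 and 8.54 on the knockout and rescued array of line 84. Knockout cells of line 84 stood 99.6-fold and rescued cells 7.63-fold above those of the other lines. The difference within line 84 was 10.98-fold, the interaction term was -3.71 (SE 0.24), and no other of the 38 genes had a larger one. The probe set shared by Isg15 and Gm9706 was at 6.41, 6.54 and 6.31 on the knockout arrays of lines 6A, 6B and 6D, at 6.15, 6.47 and 6.47 on their rescued arrays, and at 10.95 and 8.03 on the knockout and rescued array of line 84. It was 7.55-fold lower with PICALM in line 84, and the part of each gene in this signal cannot be told apart.

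The interferon-gamma inducible GTPases guard vacuoles against intracellular pathogens, and all 6 measured ones were lower with PICALM in line 84 by over 0.5. Iigp1 was at log2 levels of 5.05, 5.35 and 5.06 on the knockout arrays of lines 6A, 6B and 6D, at 4.98, 4.96 and 5.05 on their rescued arrays, and at 7.34 and 4.77 on the knockout and rescued array of line 84. In line 84 the knockout cells stood far above all others, whereas the rescued cells had the lowest of the 8 levels. Its interaction term was -2.40 (SE 0.17). Ifi47 was at 8.21, 8.39 and 8.52 in knockout and 8.36, 8.56 and 8.35 in rescued cells of 6A, 6B and 6D, and at 10.95 and 9.40 in line 84. Igtp was at 9.04, 9.11 and 8.72 in knockout and 8.75, 9.0 and 8.65 in rescued cells of 6A, 6B and 6D, and at 11.23 and 9.67 in line 84. In both the rescued array of line 84 stayed above all 6 arrays of the other lines. Irgm1 was at 8.62, 8.48 and 8.48 in knockout and 8.35, 8.48 and 8.30 in rescued cells of 6A, 6B and 6D, and at 10.67 and 8.87 in line 84, 3.47-fold apart within line 84. The guanylate-binding proteins had smaller differences within line 84. Gbp2 was at 6.0, 5.68 and 4.98 in knockout and 5.56, 5.33 and 5.38 in rescued cells of 6A, 6B and 6D, and at 7.34 and 5.99 in line 84. Line 6D differed in the opposite direction from 6A and 6B, and the probe set is of a kind that Affymetrix marks as open to cross-hybridization. A second Gbp2 probe set was at 7.05 and 5.82 in line 84 and at a mean of 5.41 in the other lines. Gbp3 was at 9.33, 9.03 and 9.02 in knockout and 8.95, 8.95 and 8.96 in rescued cells of 6A, 6B and 6D, and at 9.34 and 8.74 in line 84. It had no difference in level between line 84 and the others (0.00), and was lower on the rescued array in each of the 4 lines. The probe set shared by Tgtp1 and Tgtp2, further GTPases of this family, was at 5.0, 4.92 and 4.98 on the knockout arrays of lines 6A, 6B and 6D, at 4.62, 5.11 and 4.75 on their rescued arrays, and at 11.07 and 7.44 on the knockout and rescued array of line 84. It was 12.4-fold lower with PICALM in line 84.

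All 7 of the other interferon-stimulated genes were lower with PICALM in line 84 by over 0.5. Rtp4, a chaperone of G-protein coupled receptors, was at log2 levels of 5.26, 5.26 and 5.24 on the knockout arrays of lines 6A, 6B and 6D, at 5.06, 4.81 and 4.79 on their rescued arrays, and at 12.18 and 8.84 on the knockout and rescued array of line 84. The difference in level between line 84 and the other lines was 5.44, the largest of the 38, and the rescued array of line 84 was still 15.4-fold above the other rescued arrays. On this probe set Rtp4 was also lower with PICALM in the other 3 lines, by 0.20 to 0.45, and its difference in line 84 was 10.1-fold. On a second probe set the difference in level was 0.52 and that within line 84 was 1.59-fold. There the other 3 lines were higher with PICALM, by 0.01 to 0.08. Parp9 and Parp14, ADP-ribosyltransferases that regulate interferon signalling, followed with smaller differences. Parp9 was at 8.71, 8.62 and 8.48 in knockout and 8.47, 8.54 and 8.52 in rescued cells of 6A, 6B and 6D, and at 10.59 and 9.0 in line 84. Parp14 was at 7.49, 7.45 and 7.18 in knockout and 7.31, 7.10 and 7.11 in rescued cells of 6A, 6B and 6D, and at 9.94 and 7.83 in line 84. The rescued array of line 84 lay slightly above the other lines in both. Ifi35, a small leucine zipper protein, was at 9.10, 9.09 and 8.94 in knockout and 9.16, 9.18 and 9.10 in rescued cells of 6A, 6B and 6D, and at 10.63 and 9.60 in line 84. Cxcl10, a chemokine that draws T cells and is induced strongly by interferon gamma, was at 6.41, 6.31 and 6.29 in knockout and 6.40, 6.41 and 6.19 in rescued cells of 6A, 6B and 6D, and at 7.79 and 6.84 in line 84. Its interaction term was -0.94 (SE 0.11). Lgals3bp, a secreted glycoprotein, was at 8.55, 9.42 and 8.44 in knockout and 7.96, 8.82 and 8.37 in rescued cells of 6A, 6B and 6D, and at 11.85 and 9.96 in line 84. It was lower with PICALM in all 4 lines and its interaction term was -1.46 (SE 0.24). Sp100, a part of nuclear bodies, was at 8.24, 8.45 and 8.11 in knockout and 8.46, 8.31 and 8.23 in rescued cells of 6A, 6B and 6D, and at 9.32 and 8.51 in line 84, with an interaction term of -0.88 (SE 0.16).

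**Figure D3:**
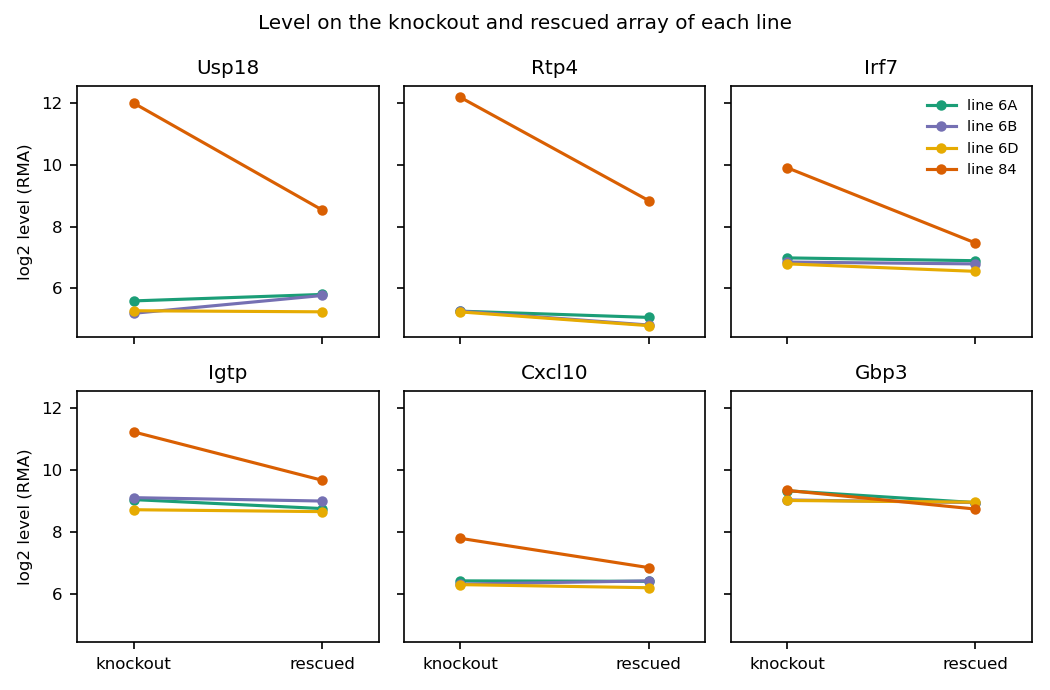
Log2 level (y axis) of 6 genes on the knockout and rescued array (x axis) of each line, 1 line of points for each cell line. Usp18 and Rtp4 are near 12 in the knockout cells of line 84 and near 5 to 6 in lines 6A, 6B and 6D; Irf7, Igtp and Cxcl10 have smaller gaps, and the 4 lines overlap in Gbp3.

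Genes of type I and type II interferon are given side by side. Both arrays of line 84 lay above all 6 others for 27 of 30 type I genes (90.0%) and 5 of 8 type II genes (62.5%). The median difference between the knockout arrays of line 84 and of the other lines was 2.61 for type I and 1.96 for type II genes, and between rescued arrays 0.69 and 0.54. Within line 84 the median difference was -1.76 for type I and -1.45 for type II genes, and 28 of 30 and 8 of 8 were lower by over 0.5. Within the other lines the type I medians were 0.00, 0.02 and 0.06 in 6A, 6B and 6D, and the type II medians -0.17, -0.10 and -0.08. The difference between the types was not tested. On the rescued array of line 84, 32 of the 38 genes lay above all 6 arrays of the other lines, against 30.5% of all probe sets, 4 (Eif2ak2, Ifit2, Mx2 and Gbp2) lay within their range, and Gbp3 and Iigp1 lay below.

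The genes of the interferons themselves differed in level between line 84 and the other lines by -0.12 to 0.43. Whether their probe sets were above background on any array is not given, so alike levels do not show alike transcript. Of 19 ligand genes listed, 10 were measured, and 0 were called in the interaction fit. An unadjusted p under 0.05 in that fit was reached by 2 of the 10, against 4480 of the 22626 probe sets. Ifnb1, the first type I interferon that most cells make, was at 4.74, 4.76 and 4.62 in knockout and 4.83, 4.44 and 4.55 in rescued cells of 6A, 6B and 6D, and at 4.91 and 4.75 in line 84. Ifng, the only type II interferon, was at 3.82, 3.97 and 4.01 in knockout and 3.90, 3.91 and 3.90 in rescued cells of 6A, 6B and 6D, and at 4.07 and 3.93 in line 84. Ifna4, an early interferon alpha, was at 5.17, 5.36 and 5.29 in knockout and 5.51, 5.40 and 5.42 in rescued cells of 6A, 6B and 6D, and at 5.59 and 5.43 in line 84. In these 3 genes the arrays of line 84 differed from the rest by less than 0.5. The median difference between the knockout array of line 84 and the other knockout arrays was 0.22 over the 10 ligands, and 0.02 between rescued arrays. Of the 10, 8 were highest of the 8 arrays on the knockout array of line 84, against 29.7% of all probe sets. Ifnz, an interferon zeta gene, had the largest difference in level, at 6.93, 7.17 and 6.98 in knockout and 7.16, 7.30 and 7.28 in rescued cells of 6A, 6B and 6D, and at 7.59 and 7.55 in line 84. Ifna5 was next, with a difference of 0.21.

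Of 11 genes of the interferon receptors and their kinases and factors, 9 were measured. An unadjusted p under 0.05 in the interaction fit was reached by 3 of the 9, against 4480 of the 22626 probe sets. Of the 9, 0 were called lower with PICALM in line 84, against 1.11% of all probe sets, and 1 was called higher, against 1.11%. That gene was Ifngr1, the ligand-binding chain of the gamma receptor, at 10.98, 11.05 and 11.18 in knockout and 11.12, 11.06 and 11.15 in rescued cells of 6A, 6B and 6D, and at 9.91 and 10.71 in line 84. It was lowest on the knockout array of line 84, with an interaction term of 0.77 (SE 0.10, adjusted p = 0.0413). The call was lost without any of lines 6A, 6B or 6D. Ifnar1 was at 8.91, 8.92 and 8.60 in knockout and 8.58, 8.59 and 8.60 in rescued cells of 6A, 6B and 6D, and at 8.60 and 8.47 in line 84. Ifnar2 was at 10.87, 10.89 and 10.80 in knockout and 10.89, 10.88 and 10.83 in rescued cells of 6A, 6B and 6D, and at 10.87 and 10.41 in line 84, lowest on the rescued array of line 84. Ifngr2, the other chain of the gamma receptor, was at 10.33, 10.30 and 10.20 in knockout and 10.26, 10.17 and 10.19 in rescued cells of 6A, 6B and 6D, and at 10.41 and 10.27 in line 84. The kinases Jak1, Jak2 and Tyk2 differed between line 84 and the others by 0.00, 0.37 and -0.08. Il10rb, a receptor chain that interferon lambda shares with interleukin 10, was lower in line 84 by 0.62. Of 19 genes that sense nucleic acid upstream of interferon, 14 were measured and 0 were called, with a median difference of -0.02 between knockout arrays. The lists of receptors, sensing and feedback leave out genes of the set that have such roles. Among these are Stat2 and Irf9, the sensors Ifih1, Dhx58 and Zbp1, and Usp18, all described above. The medians of these lists therefore do not cover the functions as a whole. An unadjusted p under 0.05 was reached by 5 of the 14, against 4480 of the 22626 probe sets. Trim25, the ubiquitin ligase of RIG-I and itself induced by interferon, differed most in level, by 0.73, with 11.72 on the knockout array of line 84 and 10.51 to 10.71 in the other lines. Of 8 genes of negative feedback 0 were called, and 1 reached an unadjusted p under 0.05, against 4480 of the 22626 probe sets. The farthest apart was Cish, an inhibitor of cytokine signalling, at 9.77 and 10.08 in line 84 and at a mean of 10.77 in the others. Socs3, an inhibitor of the same family, was at 7.24 and 7.43 in line 84 and at 7.29 to 8.23 in the others.

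Interferon-stimulated genes outside the set had the same pattern in part. Of 60 further genes usually grouped with type I interferon, 41 were measured, 19 were called lower with PICALM in line 84 (46.3%, against 1.11% of all probe sets) and 1 higher. The response of line 84 was known when these lists were written, so their calls describe these arrays as well. Both arrays of line 84 lay above all others for 25. Their median difference was 1.10 between knockout arrays, 0.22 between rescued arrays and -0.87 within line 84. Ifi27l2a, a small hydrophobic protein of the ISG12 family, was at 6.36, 6.53 and 4.62 in knockout and 6.10, 6.95 and 4.98 in rescued cells of 6A, 6B and 6D, and at 11.32 and 8.53 in line 84. Slfn8, a Schlafen protein, was at 5.42, 5.27 and 5.23 in knockout and 5.34, 5.27 and 5.34 in rescued cells of 6A, 6B and 6D, and at 10.17 and 7.39 in line 84. Epsti1 was at 7.29, 7.29 and 7.15 in knockout and 6.56, 6.90 and 6.54 in rescued cells of 6A, 6B and 6D, and at 11.48 and 9.63 in line 84. The rescued array of line 84 stayed above the other lines in these 3. Oas3, the largest of the synthetases, was at 6.16, 6.12 and 6.25 in knockout and 6.10, 6.15 and 6.24 in rescued cells of 6A, 6B and 6D, and at 9.41 and 7.13 in line 84. These 4 had the largest differences between line 84 and the other lines in this list, and all were called lower. The other genes called lower were Cmpk2, Ddx60, Ifi204, Trim21, Trim34a, Trim12a, Nmi, Ube2l6, Helz2, Daxx, Slfn2, Ms4a4c, Ms4a6b, Lgals9 and Mov10, with interaction terms from -0.70 to -2.49. Bst1, an ectoenzyme, was the gene called higher, at 6.72 on the knockout and 7.88 on the rescued array of line 84. Of 27 further genes of type II interferon, 21 were measured. Of these, 4 were called lower, Irgm2, Gbp6, H2-Aa and Gbp8 (19.0%, against 1.11% of all probe sets). Irgm2 was at 7.36, 7.43 and 7.13 in knockout and 7.38, 7.40 and 6.98 in rescued cells of 6A, 6B and 6D, and at 9.77 and 7.95 in line 84. The class II gene H2-Aa was at 6.57 and 5.79 in line 84 and at 5.15 to 5.27 elsewhere. The median of the 21 was 0.36 between knockout arrays and -0.42 within line 84.

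**Figure D4:**
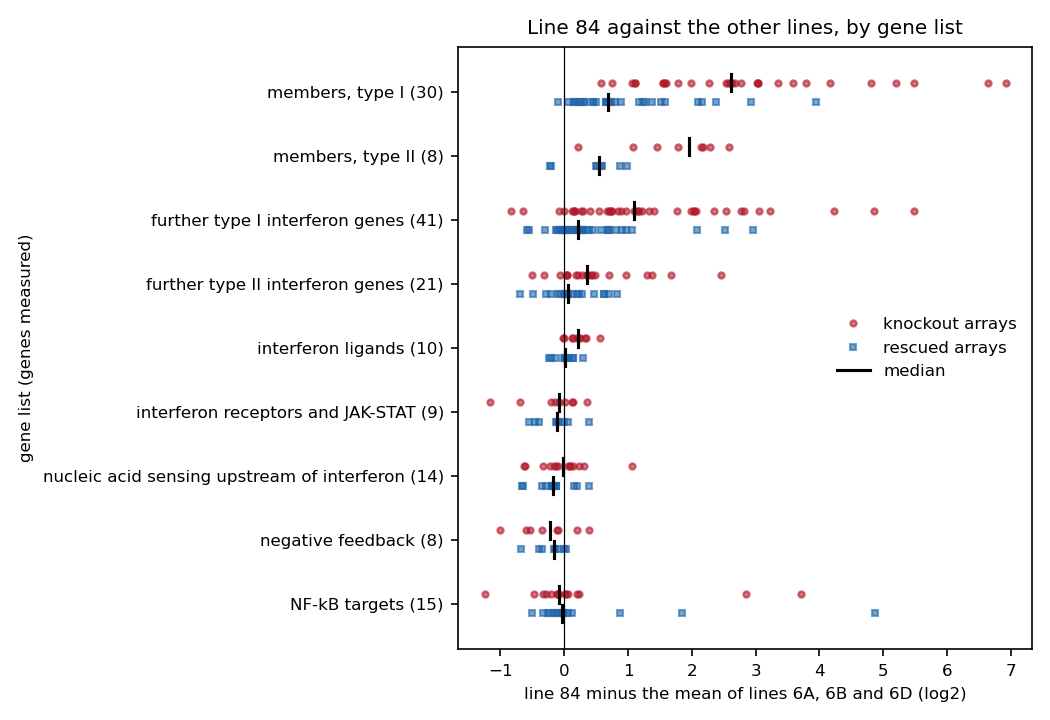
Difference in log2 level between line 84 and the mean of lines 6A, 6B and 6D (x axis) for knockout arrays (red circles) and rescued arrays (blue squares), with 1 point for each gene of 9 lists (y axis, number of genes measured) and a bar at the median. The medians of the members are 2.61 and 1.96 on knockout arrays, and those of ligands, receptors, sensing, feedback and NF-kB targets lie between -0.23 and 0.22. The lists of receptors, sensing and feedback leave out members with such roles, such as Stat2, Ifih1 and Usp18.

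Of 16 targets of NF-kB, the factor of inflammatory signalling, 15 were measured. With PICALM in line 84, 1 was called lower, against 1.11% of all probe sets, and 2 were called higher, against 1.11%. The lower one was Ccl5, a chemokine that interferon-responsive factors also induce, at 5.81, 5.52 and 5.67 in knockout and 5.42, 5.61 and 5.81 in rescued cells of 6A, 6B and 6D, and at 9.37 and 7.46 in line 84. The higher ones were Il6, an inflammatory cytokine, at 3.90, 3.89 and 3.70 in knockout and 3.86, 3.89 and 4.36 in rescued cells of 6A, 6B and 6D, and at 6.67 and 8.91 in line 84, and Bcl3, a nuclear partner of NF-kB. Bcl3 was at 6.32 and 7.17 in line 84 and at 7.47 to 7.72 elsewhere. The call of Ccl5 was lost without line 6D, that of Il6 without 6A or 6B, and that of Bcl3 without any of the 3. Il6 was thus high in both arrays of line 84 and higher on the rescued one, the reverse of the interferon-stimulated genes.

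Markers of other blood cells were read beside these values. In the interaction fit 1.11% of all probe sets were called lower and 1.11% higher. Of 7 measured markers of conventional dendritic cells (8 listed), Itgax was called lower with PICALM in line 84, at 6.74 and 5.74 against 5.40 to 5.80 elsewhere. Flt3, a cytokine receptor that progenitors also carry, was at 7.19, 7.24 and 6.80 in knockout and 6.53, 6.90 and 6.95 in rescued cells of 6A, 6B and 6D, and at 9.60 and 8.01 in line 84. The summed linear level of this list was 1206 and 601.3 on the knockout and rescued array of line 84 and 425.0 to 470.2 on the other 6. Flt3 alone made up 64.4% of that sum on the knockout array of line 84 and 21.7% to 32.5% in the other lines, and without it the sum was 429.2 and 342.8 in line 84 and 314.0 to 350.8 elsewhere, while the defining markers Xcr1 and Cd209a differed by 0.12 and 0.18 in level. Of 9 measured plasmacytoid dendritic cell markers (11 listed), Cox6a2 was called lower, Lair1 was farthest apart at 6.93 and 7.88 in line 84 and 8.60 to 8.93 elsewhere, and the summed level was 1659 and 1160 in line 84 and 1684 to 2135 elsewhere. These cells are the main makers of interferon alpha. Of 9 measured macrophage markers (10 listed), C1qc was called lower, Mrc1 was farthest apart at 6.47 and 6.84 in line 84 and 7.82 to 8.90 elsewhere, and the summed level was 4346 and 4219 in line 84 and 5594 to 8175 elsewhere. Of 10 measured T and NK cell markers (12 listed) 0 were called, with 2 at an unadjusted p under 0.05, against 4480 of the 22626 probe sets. Nkg7, a granule protein of NK cells, was at 10.91 and 11.32 in line 84 and at 7.01 to 7.88 elsewhere, and the summed level of that list was 2436 and 3051 against 600.8 to 732.5. Without Nkg7 that sum was 506.3 and 486.4 in line 84 and 457.4 to 522.6 elsewhere. Of 6 measured B cell markers (7 listed) 0 were called, with 1 at an unadjusted p under 0.05, Cd79b differed most in level, by 0.80, inside a spread of 4.93 to 8.35 over the other lines, and the summed level was 502.4 and 390.7 in line 84 and 239.5 to 522.4 elsewhere. Of 9 progenitor and white cell genes 0 were called, with 1 at an unadjusted p under 0.05. Kit and Cd34 were higher in both arrays of line 84 than in the other lines, Kit at 10.98 and 10.62 against 9.38 to 9.85. Of the 9, both arrays of line 84 lay above all 6 others for 4, against 21.7% of all probe sets. They lay below all 6 for 3, against 17.5%, and the median difference in level of the 9 was -0.02. The call of Cox6a2 was lost without 6B or 6D and that of C1qc without 6A. The part of these differences in the interferon-stimulated genes was not tested.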

How the data were processed

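The lines and conditions of all 8 arrays came from the sample titles and source names. Per the labels the arrays are the Mouse430A 2 version, which the table fits, and the methods name Mouse Genome 430 2.0. RMA normalization was done by the authors, who deposited log2 values, and these were used without further normalization, and no column was left unmapped (0). Of 22690 probe sets 64 controls were left out, and of the 22626 tested 20380 carried 1 gene symbol, 691 several and 1555 none. Symbols were looked up through 20351 gene IDs and 0 changed. The genes and lists were chosen with earlier results of these data known, and lists of pathway and marker genes were written from general knowledge.

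Differences were fitted with limma 3.58.1 (R 4.3.3, lmFit and eBayes), two-sided, with a block for each cell line. Both arrays of a line hold the same cells and so form a pair, and within pairs the deviations from group means had correlations of 0.623 to 0.811. The interaction term left 2 residual degrees of freedom, and the blocked comparison 3. For the genes of the set the interaction term is a description. The lists outside the set were written with the response of line 84 known. Their calls rest on the same single difference of line 84 and describe these arrays as well. Differences within a line are 1 array against 1 and have no test. The script was tested on simulated data. All 43 genes are accounted for, and of pathway and marker lists the called genes, the gene farthest apart in line 84 and those ligands, receptors and markers the text turns on are named. Alternatives were quantile normalization, median centring, leaving out the dimmest 40%, means over a gene's probe sets, a variance trend with robust settings, a threshold of 0.1, no block, the methods' t-test, SAM and leaving out each line.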

Additional observations from a re-analysis of the deposited data

Results flagged for a closer look

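The levels of the 38 genes in line 84, and their differences there, chose the set and were not screened. Named genes of the ligands, receptors, sensing, feedback, NF-kB and marker lists, 34 in all, were screened for an array far from the other 3 of its group, by a gap to the nearest array that took up more of the range of the group than Dixon's critical value for 4 arrays allows. Chance gives such a gap in about 1 in 20 groups. It occurred in 9 knockout groups, against 15.6% of those of all probe sets, and in 5 rescued groups, against 11.6%. In each case the array was that of line 84. Genes called in line 84 or farthest apart there were among those named, so the screen favours line 84 and nothing is read from these counts. In knockout cells the array of line 84 was the highest with a ratio of gap to range of 0.877 for Trim25, 0.926 for Ccl5, 0.932 for Il6, 0.874 for Itgax, 0.844 for Flt3, 0.896 for Cox6a2 and 0.961 for Nkg7. It was the lowest with a ratio of 0.849 for Ifngr1 and 0.941 for Lair1. In rescued cells it was the highest with a ratio of 0.902 for Il6, and the lowest with a ratio of 0.837 for Ifnar1, 0.878 for Ifnar2, 0.910 for Hoxa9 and 0.936 for Lair1.

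The difference between rescued and knockout cells was called different in line 84 from the other 3 lines by the interaction term of limma, at an adjusted p under 0.05, for some of these genes. The term on the log2 scale was -1.86 for Ccl5, -1.19 for Itgax, -0.89 for Cox6a2 and -1.35 for C1qc, which were lower with PICALM in line 84, and 0.77 for Ifngr1, 2.03 for Il6 and 0.91 for Bcl3, which were higher. Line 84 gives 1 difference to this contrast, and leaving out line 6A, 6B or 6D kept the call of Itgax, while each of the other genes lost it without at least 1 of these lines.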

How the results depend on the processing

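Precision is limited by there being 8 arrays, and each difference within a line rests on 2 arrays. Signal over background was not in the table. Without the replicate block 0 of the 38 genes were called between rescued and knockout cells, as with it, and each of the other alternatives, which were not run without the block, apart from the methods' t-test, also called 0. The count over all probe sets called lower there, 4, moved to 8 without the dimmest 40%, to 0 with means over a gene's probe sets, without the block and by the methods' t-test (1179 at an unadjusted p under 0.05, 1 of them among the 38 genes), to 28 (and 4 higher) with a variance trend, to 17 (and 1 higher) at a threshold of 0.1, to 227 (and 142 higher) by SAM, and to 0 without each line (0 to 0).

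For the interaction of line 84, whose counts over the 38 genes are a description, 23 to 35 of the 38 genes were called lower across alternatives and 0 higher. The lowest count, 23, came without the dimmest 40%, which left fewer genes to test, and the counts without 6A, 6B and 6D were 25, 27 and 28. The median term, -1.62, was -1.48 without the dimmest 40%, -1.54 with means over probe sets and -1.56 to -1.66 without 1 line. Over all probe sets, 251 lower and 251 higher moved to 446 higher without the dimmest 40%, 600 and 926 with a variance trend, 547 and 665 at a threshold of 0.1, and 141 to 160 lower and 117 to 173 higher without 1 line. Of 296 single-gene values under the alternatives, 277 stayed on their side of the threshold, 9 lost the call and 10 gained it, and none changed direction. The 5 genes that lost it were Adar and Oasl1 (without 6A or 6B), Ifi47 (without 6A), Mx2 (without 6D) and Cxcl10 (without any of the 3).

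The median difference between line 84 and the others, 1.54, was 2.41 on knockout and 0.65 on rescued arrays. Genes lower by over 0.5 in line 6B numbered 2 after quantile normalization in place of 1. At a size of 1 none was lower in 6A (0) or 6B (0), and with means over probe sets the median in line 84 was -1.58. The causes of these shifts were not tested.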

Other observations

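Of the 38 genes, 10 were measured by further probe sets, 14 in all, which the counts did not use. Of these 14, 9 were lower by over 0.5 on the rescued than on the knockout array of line 84, a description as for the first probe sets. Rsad2 was at log2 levels of 9.79 on the knockout and 6.67 on the rescued array of line 84 and at a mean of 4.54 in the other lines on 1 of them, and at 8.24 on the knockout and 5.69 on the rescued array of line 84 and at a mean of 4.82 in the other lines on another. Trim30a, an interferon-induced TRIM protein, was at 11.22 on the knockout and 9.52 on the rescued array of line 84 and at a mean of 8.62 in the other lines on its second probe set. The second probe set of Zbp1 was at 8.07 on the knockout and 6.74 on the rescued array of line 84 and at a mean of 6.12 in the other lines. The second probe set of Rtp4, the gene with the largest difference, was at 5.07 on the knockout and 4.40 on the rescued array of line 84 and at a mean of 4.21 in the other lines, a much smaller gap than on the first. Iigp1 was again below the other lines on the rescued array, at 5.69 on the knockout and 4.23 on the rescued array of line 84 and at a mean of 4.40 in the other lines. The other 5 belonged to Samhd1 (3), Stat2 and Dhx58. The 3 of Samhd1 differed between the arrays of line 84 by less than 0.5, and 1 probe set of Dhx58 was at 5.87 on the knockout and 5.68 on the rescued array of line 84 and at a mean of 5.79 in the other lines, whereas the other was at 5.34 on the knockout and 4.45 on the rescued array of line 84 and at a mean of 4.46 in the other lines.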
